A study of Mus musculus with 23 samples.

Results

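The mast cell genes Cpa3, Mcpt4, Cma1, Tpsb2, Kit and Ms4a2 were followed in RNA sequencing libraries of mouse sciatic nerves (SNs). They were selected by gene symbol and are 6 of the 43068 genes listed in the crush libraries, and 6 of the 22880 genes listed in the inducible knockout (iKO) libraries. The crush experiment used male wild-type C57bl6 mice (C57BL/6J in the study's methods) aged 2 months. Nerves were taken 3 days post crush (3 dpc, Crushed, n = 4), from the uninjured side (Contralateral, n = 4), or from mice labelled as an uncrushed surgery control (Uncrushed, n = 3). The iKO experiment used mice on the same background at 3 months post tamoxifen (3 mpT), with 3 libraries in each of 4 groups. Dicer iKO mice were P0-CreERT2 -/+ Dicer1 flox/flox and Dgcr8 iKO mice were P0-CreERT2 -/+ Dgcr8 flox/flox. Their controls carried the same floxed alleles and were P0-CreERT2 -/-. All of these mice, controls included, received tamoxifen on 5 days at 8 to 10 weeks of age.

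Dicer and Dgcr8 are proteins of the microRNA biogenesis pathway. The tamoxifen-activated Cre was directed to myelinating Schwann cells, so mast cells were not the cells in which recombination was intended. Each library is bulk RNA of a whole piece of nerve. The study kept only iKO mice with visible changes of the nerve. Removal of the outer nerve layers is described for the nerves used in PCR, and whether it was done before sequencing is not given in the sources used here.

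Mast cells are resident immune cells that mature in connective tissue, including the endoneurium and epineurium of nerves, where they lie along vessels. Their granules store proteases bound to proteoglycan, together with histamine, and empty when IgE cross-links its receptor FcεRI or when other receptors are triggered. Growth and survival depend on the receptor tyrosine kinase KIT and its ligand, the stem cell factor made by stromal cells and encoded by Kitl. Mast cells of connective tissue are recognized by the chymases Mcpt4 and Cma1, the tryptase Tpsb2 and carboxypeptidase A3, whereas mucosal mast cells express Mcpt1 and Mcpt2.

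The 6 genes have different roles. Cpa3 (ENSMUSG00000001865) encodes the granule carboxypeptidase, Mcpt4 (ENSMUSG00000061068) and Cma1 (ENSMUSG00000022225) encode chymases, and Tpsb2 (ENSMUSG00000033825) encodes a tryptase. Kit (ENSMUSG00000005672) encodes the receptor for stem cell factor, and Ms4a2 (ENSMUSG00000024680) encodes the beta chain of FcεRI. Of these, Kit is the least restricted, since melanocytes and other cells also express it. In GRCm38, Mcpt4 (chr14:56059629-56062313, minus strand) and Cma1 (chr14:55941451-55944675, minus strand) lie in the same cluster of granule protease genes. The other genes lie apart, with Cpa3 at chr3:20215620-20242181 (minus strand), Tpsb2 at chr17:25366305-25369098 (plus strand), Kit at chr5:75574916-75656722 (plus strand) and Ms4a2 at chr19:11615523-11623719 (minus strand). Only Cpa3 overlapped another annotated gene, the small Mir7007.

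Because the granule protease genes varied together, the 250 bases before the transcription start were read for the members listed in RefSeq's table of promoters (GRCm38.p6), each on the strand of its gene. Tpsb2 has no entry there, so its window was not read. GATA1 and GATA2 are transcription factors of the mast cell lineage, and matches on either strand to GATA preceded by A or T and followed by A or G (such as AGATAA) are printed in capitals. The window of Mcpt1, the mucosal chymase of the same cluster, is shown for comparison with that of Mcpt4.
Cpa3 chr3:20242182-20242431: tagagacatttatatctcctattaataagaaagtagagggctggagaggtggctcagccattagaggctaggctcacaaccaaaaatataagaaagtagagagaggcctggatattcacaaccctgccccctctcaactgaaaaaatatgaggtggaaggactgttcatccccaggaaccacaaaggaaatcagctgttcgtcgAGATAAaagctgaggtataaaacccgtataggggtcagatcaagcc
Mcpt4 chr14:56062311-56062560: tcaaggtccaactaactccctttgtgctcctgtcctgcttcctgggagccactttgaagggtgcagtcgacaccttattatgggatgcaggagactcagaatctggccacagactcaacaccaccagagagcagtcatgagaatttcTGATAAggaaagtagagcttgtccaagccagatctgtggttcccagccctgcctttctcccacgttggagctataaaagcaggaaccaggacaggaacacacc
Mcpt1 chr14:56017714-56017963: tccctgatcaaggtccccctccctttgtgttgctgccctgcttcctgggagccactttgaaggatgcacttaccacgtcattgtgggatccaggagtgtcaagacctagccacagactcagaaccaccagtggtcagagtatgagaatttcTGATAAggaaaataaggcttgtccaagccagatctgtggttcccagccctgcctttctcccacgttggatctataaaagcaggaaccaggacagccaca
Cma1 chr14:55944676-55944925: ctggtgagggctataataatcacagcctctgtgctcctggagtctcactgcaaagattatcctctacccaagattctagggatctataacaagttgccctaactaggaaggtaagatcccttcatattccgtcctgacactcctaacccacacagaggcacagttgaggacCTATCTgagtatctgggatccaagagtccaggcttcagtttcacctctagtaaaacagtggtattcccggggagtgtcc
Ms4a2 chr19:11623720-11623969: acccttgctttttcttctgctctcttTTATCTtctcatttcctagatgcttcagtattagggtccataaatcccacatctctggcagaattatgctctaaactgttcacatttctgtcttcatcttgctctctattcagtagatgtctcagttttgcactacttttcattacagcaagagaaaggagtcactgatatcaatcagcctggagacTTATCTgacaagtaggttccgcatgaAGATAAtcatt

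The GATA letters occurred 1 time in the windows of Cpa3, Mcpt4, Cma1 and Mcpt1, at 46, 103, 79 and 99 bases before the start, respectively. In the Ms4a2 window they occurred 3 times, at 224, 37 and 11 bases before the start. The windows of Kit (chr5:75574737-75574986 and chr5:75574741-75574990) overlap almost wholly and held no match. Both reach past the start of Kit at 75574916 given above, so by that position they lie partly inside the gene. For comparison, 26.5% of 32851 promoter windows of the same length held at least 1 match, so that these letters are common. TGTGGT on either strand, the letters bound by RUNX factors, was found in Cpa3, Mcpt4 and Mcpt1 and in 14.0% of all windows. CATGTG or CACGTG, the E-box of MITF, was found in none of the member windows read and in 17.6% of all windows. TATAAA on the gene's strand was found in Cpa3, Mcpt4 and Mcpt1 and in 7.59% of all windows. None of the 4 motifs contains another. The windows of Mcpt4 and Mcpt1 were identical in 213 of 260 alignment columns (81.9%), and shared 1 match each to the GATA, RUNX and TATA letters. Mcpt1 itself was at 0 counts in all 12 iKO libraries, in which Mcpt4 had 22 to 695 counts.

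Total counts per library were 5594859 to 12806066. The level that 3 counts represent, used as the detection limit, ran from 0.234 to 0.453 CPM (counts scaled to library size) for crush libraries, and from 0.296 to 0.536 CPM for iKO libraries. This limit covers counting error only. The labels name different library kits for the 2 experiments, which were also normalized apart, so no level was tested across them. Adipocyte transcripts set 3 libraries apart, with Cfd at 5.07 CPM in Crushed 1, 57.2 CPM in Dicer control 2 and 45.1 CPM in Dgcr8 iKO 2. The 5 adipocyte markers also summed to 7.06 CPM in Dicer control 3 and 3.65 CPM in Dgcr8 control 1, against at most 0.208 CPM in the remaining iKO libraries. Without Dgcr8 control 1, Cpa3, Cma1 and Tpsb2 were still called higher in Dgcr8 iKO, with log2 fold changes of 2.08, 2.596 and 1.897, and Mcpt4 was not (1.42, adjusted p = 0.0625). Skeletal muscle transcripts (Acta1, Ckm, Myh4, Myh1 and Tnnt3) summed to 18.1 CPM in Dicer control 3 and to 0.699 to 6.32 CPM in the other iKO libraries. The counts cover whole transcripts and do not resolve the floxed exons, so they do not check the deletions.

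In the crush libraries the granule proteases ranged from 0 counts to 131 counts (Mcpt4 in Contralateral 1), and in Crushed 1, 2 and 4 each of them had at most 6 counts. Between genes, levels were compared as CPM per kilobase of transcript. In contralateral nerves Mcpt4 had 5.79 ± 4.71 CPM per kilobase (SD, n = 4), Cma1 3.23 ± 2.60, Cpa3 2.83 ± 2.19, Tpsb2 2.53 ± 2.23, Kit 1.28 ± 0.43 and Ms4a2 0.52 ± 0.39. Neighbours in this order differed by less than the larger of their SDs, except Kit and Ms4a2. In uncrushed nerves Kit had 1.92 ± 0.70 CPM per kilobase (n = 3) and Mcpt4 had 1.85 ± 2.46. At 3 dpc Kit had 1.78 ± 0.32 CPM per kilobase, while the other 5 genes had means of 0.162 to 0.553. Each transcript's count was divided by its own length, so a few counts on short transcripts with retained introns raised Kit in the crush libraries. For example, 4.75 of the 41 Kit counts in Uncrushed 2 lay on a transcript of 354 bases. The place of Kit in these orders is therefore uncertain.

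**Figure D1:**
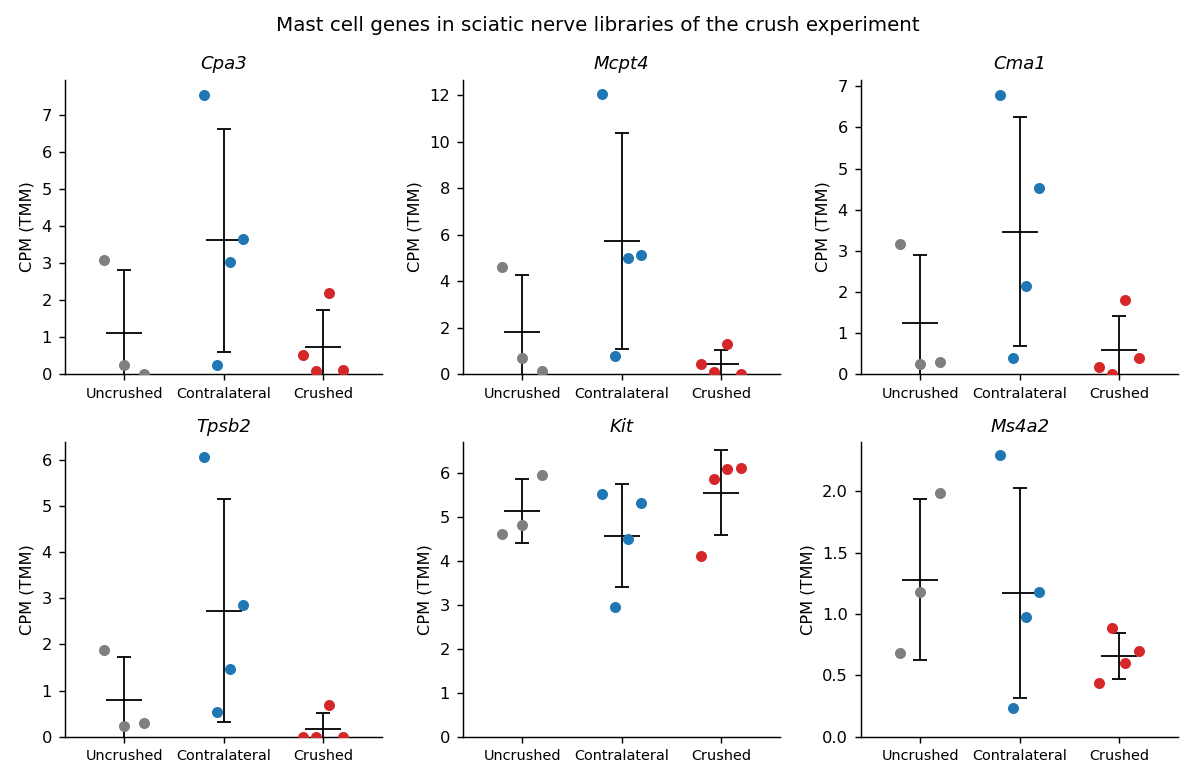
Levels of the 6 mast cell genes in the 11 crush libraries. Each point is 1 library (y axis: TMM-normalized CPM, linear from 0; x axis: group), horizontal bars are means and error bars are SD. Mcpt4, Cpa3, Cma1 and Tpsb2 spread widely within the contralateral and uncrushed groups and are low in most crushed libraries, whereas Kit lies between 2.96 and 6.12 CPM in all of them.

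Granule proteases were lower at 3 dpc than in contralateral nerves. Mcpt4 fell by 3.77 on the log2 scale, Cma1 by 2.70 and Cpa3 by 2.45, whereas Kit did not pass the thresholds. A gene was called when its fold change was at least 2 and its adjusted p at most 0.05. By this rule 3 of the 4 members tested were called lower and 0 higher, against 13.6% of the 16667 genes tested called lower and 14.6% called higher. The median log2 fold change was -2.57 over the 4 members tested and -0.06 over all genes tested. Cpa3, Mcpt4 and Cma1 passed the filter on low counts through the contralateral libraries, in which they were high, so these counts are a description only. In bulk tissue, fewer mast cells and less of a transcript per mast cell cannot be told apart.

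Mcpt4 had 12.03, 0.778, 4.99 and 5.12 CPM in Contralateral 1 to 4, and 0.437, 0.0890, 1.30 and 0 CPM in Crushed 1 to 4. All crushed libraries except Crushed 3 were below every contralateral library, and Contralateral 2 was the low library of its group. The difference was a log2 fold change of -3.77 (SE 0.78, adjusted p = 0.000671, quasi-likelihood test of edgeR, Benjamini-Hochberg adjustment, as for every adjusted p here unless named).

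Cpa3 had 7.53, 0.233, 3.03 and 3.65 CPM in Contralateral 1 to 4 and 0.525, 0.0890, 2.20 and 0.1004 CPM in Crushed 1 to 4. Cma1 had 6.80, 0.389, 2.15 and 4.53 CPM in the contralateral libraries and 0.175, 0, 1.80 and 0.401 CPM in the crushed libraries. For both genes the groups overlapped, with Contralateral 2 the low library of its group and Crushed 3 the highest crushed library. The log2 fold changes were -2.45 for Cpa3 (SE 0.80, adjusted p = 0.0151) and -2.70 for Cma1 (SE 0.80, adjusted p = 0.00853).

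Tpsb2, the tryptase, had 6.06, 0.544, 1.47 and 2.86 CPM in Contralateral 1 to 4, and 7 counts (0.699 CPM) in Crushed 3. The other crushed libraries held 0 counts of Tpsb2, which at their depth allows at most the level of the detection limit. It did not pass the filter on low counts, and with no filter its log2 fold change was -3.91 (SE 0.57, adjusted p = 2.18e-08). Of the 6 members, 0 were lower in every crushed library than in every contralateral library, against 23% of all genes tested.

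Kit had 4.11, 5.87, 6.09 and 6.12 CPM in Crushed 1 to 4 and 5.51, 2.96, 4.50 and 5.32 CPM in Contralateral 1 to 4. Its levels overlapped and the log2 fold change was 0.15 (SE 0.21, adjusted p = 0.532). Ms4a2 was low throughout, with 0.437 to 0.890 CPM (5 to 10 counts) in crushed and 0.233 to 2.30 CPM (3 to 25 counts) in contralateral nerves. It did not pass the filter, and with no filter its log2 fold change was -0.77 (SE 0.44, adjusted p = 0.221).

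The calls depended on single libraries. Without Contralateral 2, 5 members were called lower, with Tpsb2 at -4.43 (adjusted p = 0.000381) and Ms4a2 at -1.29 (adjusted p = 0.0127). Without Contralateral 1, Cpa3 had a log2 fold change of -1.77 (adjusted p = 0.0773) and was no longer called. Without Crushed 3, the values were -3.97 for Cpa3, -5.04 for Mcpt4 and -4.30 for Cma1. Without Crushed 1, the library with adipocyte transcripts, they were -2.36, -3.79 and -2.42. DESeq2's Wald test called only Mcpt4 among the members, with adjusted p = 0.0697 for Cpa3 and 0.0533 for Cma1.

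Against uncrushed nerves, the same crushed libraries gave no call for the members. The uncrushed libraries were uneven. Uncrushed 1 had 4.61 CPM of Mcpt4, 3.08 of Cpa3, 3.16 of Cma1 and 1.88 of Tpsb2. Uncrushed 2 and 3 had 0.706 and 0.153 CPM of Mcpt4, 0.235 and 0 of Cpa3, 0.235 and 0.305 of Cma1, and 0.235 and 0.305 of Tpsb2. Only Kit passed the filter, with 4.61, 4.82 and 5.95 CPM in Uncrushed 1 to 3 and a log2 fold change of 0.01 (SE 0.20, adjusted p = 0.977). Accordingly 0 of 1 member tested were called, in edgeR and in DESeq2. Of 17477 genes, edgeR called 15.3% higher and 21.1% lower, and DESeq2 called 6257 genes. An unadjusted p under 0.05 was reached by 0 of 1 member and by 12235 genes. With no filter on counts, Mcpt4 (-2.06, SE 0.46, adjusted p = 5.07e-05), Tpsb2 (-2.25, SE 0.68, adjusted p = 0.00416) and Cma1 (-1.16, SE 0.48, adjusted p = 0.0474) were called lower. In the fit of all groups together none of them was called, with larger SEs. Mcpt4 had -2.40 (SE 1.05, adjusted p = 0.0535), Tpsb2 -2.58 (SE 1.18, adjusted p = 0.0626) and Cma1 -1.49 (SE 1.05, adjusted p = 0.215). The calls without a filter therefore depended on the fit.

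Without Uncrushed 2 or Uncrushed 3, Mcpt4 passed the filter and was called lower (-2.61, adjusted p = 0.0383, and -2.70, adjusted p = 0.0187, respectively). Without Uncrushed 1, Ms4a2 was called lower, at -1.31 (adjusted p = 0.0251). Ms4a2 had 0.684, 1.18 and 1.98 CPM in Uncrushed 1 to 3, the opposite ranking to that of Mcpt4 and Cpa3 in the same libraries.

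Contralateral and uncrushed nerves did not differ in any member by the thresholds. The log2 fold changes, contralateral minus uncrushed, were 1.37 for Cpa3, 1.36 for Mcpt4, 1.197 for Cma1 and 1.48 for Tpsb2, with SEs of 0.80 to 0.93. They were -0.23 for Kit and -0.14 for Ms4a2, and the adjusted p of all 6 was 0.350 to 0.923. edgeR called 0 of 6 members, 0 of 6 had an unadjusted p under 0.05 and DESeq2 called 0, against 0% of 17722 genes called higher and 0% called lower (3164 genes had an unadjusted p under 0.05, and DESeq2 called 31). The spread was wide: within the contralateral group Mcpt4 ranged 15.5-fold and Cpa3 32.3-fold, while Kit ranged 1.86-fold.

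Markers of other cell types changed at 3 dpc in both directions. All 5 macrophage markers tested were called higher, and their summed level was 170 to 360 CPM in crushed and 33.8 to 67.4 CPM in contralateral nerves. Fibroblast markers overlapped between the groups (1967 to 2436 and 2344 to 3176 CPM), with 2 of 7 called higher and 1 called lower. Of all genes tested, 14.6% were called higher and 13.6% lower. Perineurial markers summed to 113 to 133 CPM in crushed and 344 to 452 CPM in contralateral nerves, and of the 3 tested Itgb4 was called lower (-2.04, SE 0.11). Of the Schwann cell genes, Prx (-5.65, SE 0.19) and S100b (-2.66, SE 0.09) were called lower. Their part in the result was not tested.

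In the iKO experiment each granule protease had at least 11 counts in every library. Their levels were higher in Dgcr8 iKO than in its controls, 5.74-fold for Cma1, 4.55-fold for Cpa3, 3.92-fold for Tpsb2 and 2.62-fold for Mcpt4. Kit was at the level of the controls. Here too, more mast cells and more of a transcript per mast cell cannot be told apart in bulk tissue. In Dicer iKO all 6 members had higher means than in controls, but the Dicer controls varied and no member was called.

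**Figure D2:**
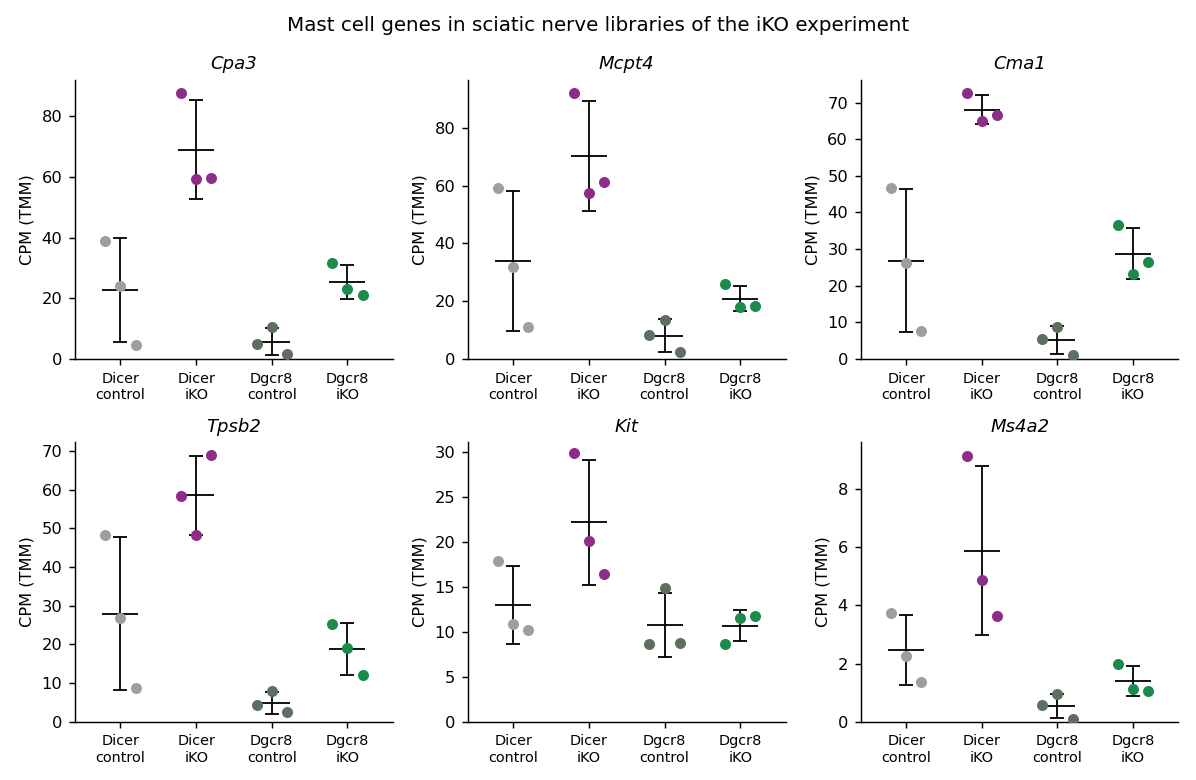
Levels of the 6 mast cell genes in the 12 iKO libraries. Each point is 1 library (y axis: TMM-normalized CPM, linear from 0; x axis: group), horizontal bars are means and error bars are SD (n = 3). Cpa3, Mcpt4, Cma1, Tpsb2 and Ms4a2 are higher in every Dgcr8 iKO library than in every Dgcr8 control, and Kit is not.

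Cma1 had 5.53, 8.71 and 1.14 CPM in Dgcr8 control 1 to 3 and 36.6, 23.3 and 26.4 CPM in Dgcr8 iKO 1 to 3. Every mutant was above every control, and the log2 fold change was 2.52 (SE 0.45, adjusted p = 0.000927). Cpa3 had 4.82, 10.6 and 1.66 CPM in the controls and 31.6, 23.2 and 21.1 CPM in the mutants, without overlap. Its log2 fold change was 2.19 (SE 0.44, adjusted p = 0.00197).

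Tpsb2 had 4.35, 7.91 and 2.39 CPM in Dgcr8 control 1 to 3 and 25.4, 19.0 and 12.1 CPM in Dgcr8 iKO 1 to 3, a log2 fold change of 1.97 (SE 0.38, adjusted p = 0.00155). Mcpt4 had 8.35, 13.5 and 2.29 CPM in the controls and 25.9, 18.1 and 18.5 CPM in the mutants, a log2 fold change of 1.39 (SE 0.43, adjusted p = 0.0211). Neither gene overlapped between the groups, and Dgcr8 control 3 was the lowest library for all 4 proteases.

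Kit had 8.71, 14.9 and 8.73 CPM in Dgcr8 control 1 to 3 and 8.71, 11.6 and 11.8 CPM in Dgcr8 iKO 1 to 3. The log2 fold change was -0.01 (SE 0.24, adjusted p = 0.987). Ms4a2 had 0.588, 0.938 and 0.104 CPM in the controls (5, 7 and 1 counts) and 17, 12 and 9 counts in the mutants, of which Dgcr8 iKO 2 and 3 had 1.14 and 1.05 CPM. It was higher in all 3 mutants but did not pass the filter on low counts, and with no filter its log2 fold change was 1.38 (SE 0.67, adjusted p = 0.120).

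Thus 4 of the 5 members tested in Dgcr8 iKO were called higher and 0 lower, against 13.4% of 13252 genes called higher and 6.99% called lower. The median log2 fold change was 1.97 over these members and -0.01 over all genes tested. Of the 6 members, 5 were higher in every mutant than in every control, against 29.1% of the genes tested. Cma1, Cpa3 and Tpsb2 were called whichever library was left out, with log2 fold changes of 2.002 to 3.13, 1.71 to 2.97 and 1.61 to 2.48, respectively. The highest of these values came without Dgcr8 control 2 and the lowest without Dgcr8 control 3. Without Dgcr8 iKO 2, the library with adipocyte transcripts, Cma1 was at 2.66, Cpa3 at 2.25, Tpsb2 at 1.97 and Mcpt4 at 1.49, all 4 called. The call of Mcpt4 was lost without Dgcr8 control 1 (1.42, adjusted p = 0.0625), without Dgcr8 control 3 (0.91, adjusted p = 0.0199) and without Dgcr8 iKO 1 (1.202, adjusted p = 0.0740), and in DESeq2 (1.37, adjusted p = 0.0923).

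In the Dicer line, Cpa3 had 38.9, 24.1 and 4.75 CPM in Dicer control 1 to 3 and 87.6, 59.3 and 59.7 CPM in Dicer iKO 1 to 3. Cma1 had 46.7, 26.2 and 7.74 CPM in the controls and 72.7, 65.0 and 66.5 CPM in the mutants. For both genes every mutant was above every control, and the controls spread 8.19-fold and 6.03-fold, against 1.48-fold and 1.12-fold among the mutants. The log2 fold changes were 1.62 for Cpa3 (SE 0.57, adjusted p = 0.0827) and 1.35 for Cma1 (SE 0.50, adjusted p = 0.0929).

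Tpsb2 had 48.2, 26.9 and 8.83 CPM in Dicer control 1 to 3 and 58.3, 48.3 and 68.9 CPM in Dicer iKO 1 to 3, with a log2 fold change of 1.07 (SE 0.49, adjusted p = 0.155). Its highest control, 48.23 CPM, was just below its lowest mutant, 48.33 CPM. Mcpt4 had 59.1, 31.8 and 10.997 CPM in the controls and 92.2, 57.5 and 61.3 CPM in the mutants, with overlap and a log2 fold change of 1.06 (SE 0.50, adjusted p = 0.171).

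Kit had 17.9, 10.8 and 10.2 CPM in Dicer control 1 to 3 and 29.97, 20.2 and 16.4 CPM in Dicer iKO 1 to 3 (log2 fold change 0.78, SE 0.30, adjusted p = 0.1003). Ms4a2 had 3.73, 2.27 and 1.36 CPM in the controls and 9.15, 4.87 and 3.62 CPM in the mutants (log2 fold change 1.27, SE 0.48, adjusted p = 0.0979). In both genes Dicer control 1 lay above the lowest mutant.

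edgeR called 0 of 6 members in Dicer iKO, and DESeq2 called 0 as well. An unadjusted p under 0.05 was reached by 4 of 6 members and by 4736 of the 13045 genes tested. The median log2 fold change was 1.17 over the members and -0.01 over all genes tested. Of 13045 genes, 7.37% were called higher and 1.64% lower. No overlap between the groups, with the mutants higher, was seen in 3 of 6 members and in 21.7% of the genes tested. Without Dicer control 1, 5 members were called higher: Cpa3 (2.27, adjusted p = 0.0243), Cma1 (2.01, adjusted p = 0.0147), Mcpt4 (1.73, adjusted p = 0.0246), Tpsb2 (1.72, adjusted p = 0.0220) and Kit (1.09, adjusted p = 0.0289). Without Dicer control 3, 1 member, Cpa3, was called (1.14, adjusted p = 0.0174). Without Dicer control 2, the library with adipocyte transcripts, the log2 fold changes were 0.66 to 1.66 and 0 members were called.

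**Figure D3:**
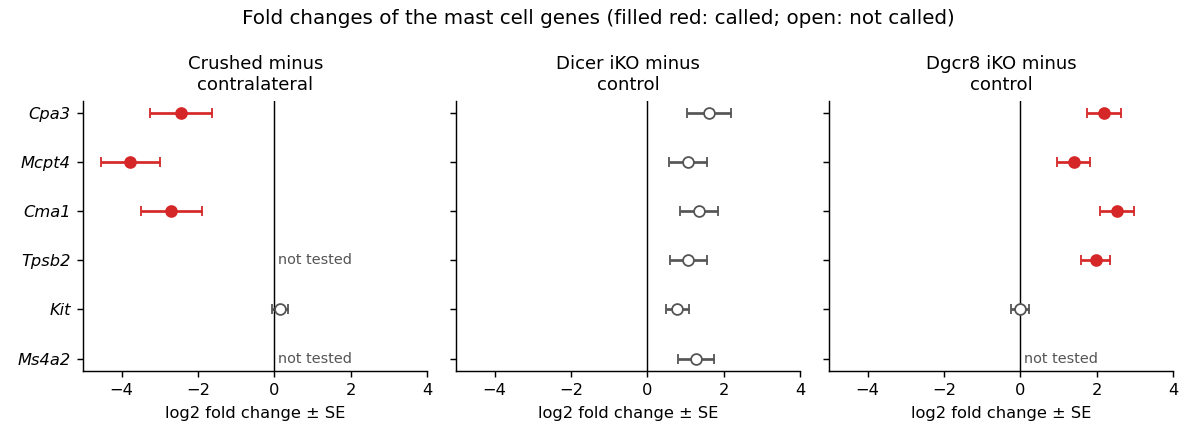
Log2 fold change of each mast cell gene in 3 comparisons (x axis: log2 fold change; error bars: SE). Filled red points were called and open points were not, and genes that did not pass the filter on low counts are marked as not tested. Cpa3, Mcpt4 and Cma1 lie left of 0 after crush (crushed minus contralateral), where Tpsb2 was not tested. All of these proteases, Tpsb2 included, lie right of 0 in both mutants, while Kit lies near 0 after crush and in Dgcr8 iKO.

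Whether the effects of both mutants differed was asked with an interaction term over the 12 libraries, with the adjusted p threshold alone. The Dgcr8 effect minus the Dicer effect was 1.18 for Cma1 (SE 0.77, adjusted p = 0.527), 0.90 for Tpsb2 (SE 0.71, adjusted p = 0.607) and 0.57 for Cpa3 (SE 0.83, adjusted p = 0.798). It was 0.34 for Mcpt4 (SE 0.76, adjusted p = 0.872), 0.12 for Ms4a2 (SE 0.73, adjusted p = 0.959) and -0.79 for Kit (SE 0.42, adjusted p = 0.429). edgeR called 0 of 6 members, against 0.0148% of 13552 genes, and DESeq2 called 0 members and 235 genes. An unadjusted p under 0.05 was reached by 0 of 6 members and by 1861 genes. That proteases were called in Dgcr8 iKO and not in Dicer iKO therefore does not show that the mutants differed, and the SEs leave room for differences of more than 2-fold.

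The Cre-negative controls of both lines, all given tamoxifen, were compared as well. The log2 fold changes, Dgcr8 controls minus Dicer controls, were -2.03 for Cpa3 (SE 0.75), -2.11 for Mcpt4 (SE 0.66), -2.43 for Cma1 (SE 0.72), -2.55 for Tpsb2 (SE 0.61) and -2.21 for Ms4a2 (SE 0.66), at adjusted p = 0.111 to 0.207. Kit differed by -0.28 (SE 0.30, adjusted p = 0.639). edgeR called 0 of 6 members, 5 had an unadjusted p under 0.05, and DESeq2 called 1, Tpsb2 (-2.53, adjusted p = 0.0369), and gave no adjusted p for Ms4a2. Among all 12823 genes tested, 0% were called higher and 0.0312% lower, and 2398 had an unadjusted p under 0.05. Without Dicer control 3, 5 members were called lower, from -2.51 for Ms4a2 (adjusted p = 0.0240) to -2.99 for Tpsb2 (adjusted p = 0.000447). These libraries are also those of the mutant comparisons, so these values are not separate evidence.

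Protease levels of Dgcr8 iKO lay within the range of the Dicer controls. Summed over Cpa3, Mcpt4, Cma1 and Tpsb2, the levels were 7.48, 23.1 and 40.7 CPM in Dgcr8 controls (in ascending order), 32.3, 109 and 193 CPM in Dicer controls, 78.2, 83.6 and 120 CPM in Dgcr8 iKO and 230, 256 and 311 CPM in Dicer iKO. The lowest Dicer control lay within the range of the Dgcr8 controls. No test was made between Dgcr8 iKO and Dicer controls.

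Per kilobase, the proteases exceeded Kit and Ms4a2 in the iKO experiment. Dicer iKO had 71.0 ± 19.2 CPM per kilobase of Mcpt4 (SD, n = 3), 63.4 ± 3.76 of Cma1, 54.1 ± 9.52 of Tpsb2 and 47.5 ± 11.2 of Cpa3, against 4.24 ± 1.35 of Kit and 2.96 ± 1.25 of Ms4a2. Dgcr8 iKO had 26.8 ± 6.45 of Cma1, 21.1 ± 4.41 of Mcpt4, 17.5 ± 3.86 of Cpa3, 17.4 ± 6.15 of Tpsb2, 2.04 ± 0.33 of Kit and 0.660 ± 0.351 of Ms4a2. Neighbours among the 4 proteases differed by less than the larger of their SDs in both mutants.

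The shares of the 4 proteases among each other were compared next. In Dgcr8 iKO, Cma1 made up 32.5% ± 3.1 of the summed CPM per kilobase of the 4 proteases (SD, n = 3) and Mcpt4 25.6% ± 1.3. In Dgcr8 controls the shares were 20.9% ± 4.5 and 37.4% ± 3.0, and neither overlapped with the mutants. In the Dicer line the share of Cma1 was 24.7% ± 0.4 in controls and 27.1% ± 2.5 in mutants, that of Mcpt4 was 34.8% ± 2.3 and 29.8% ± 3.6, and both overlapped. The share of Cpa3 was 14.4% ± 3.07 in Dicer controls and 20.01% ± 1.98 in Dicer iKO, without overlap, and 15.9% to 20.1% in Dgcr8 controls and 20.7% to 21.7% in Dgcr8 iKO, also without overlap. These shares were chosen after the levels were seen and were not tested. The similar cluster genes Cma2 (85.3% identical to the Mcpt4 transcript over 912 bases) and Mcpt1 (82.5% over 998 bases) had at most 0.663 CPM and 0 CPM in the iKO libraries, respectively.

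**Figure D4:**
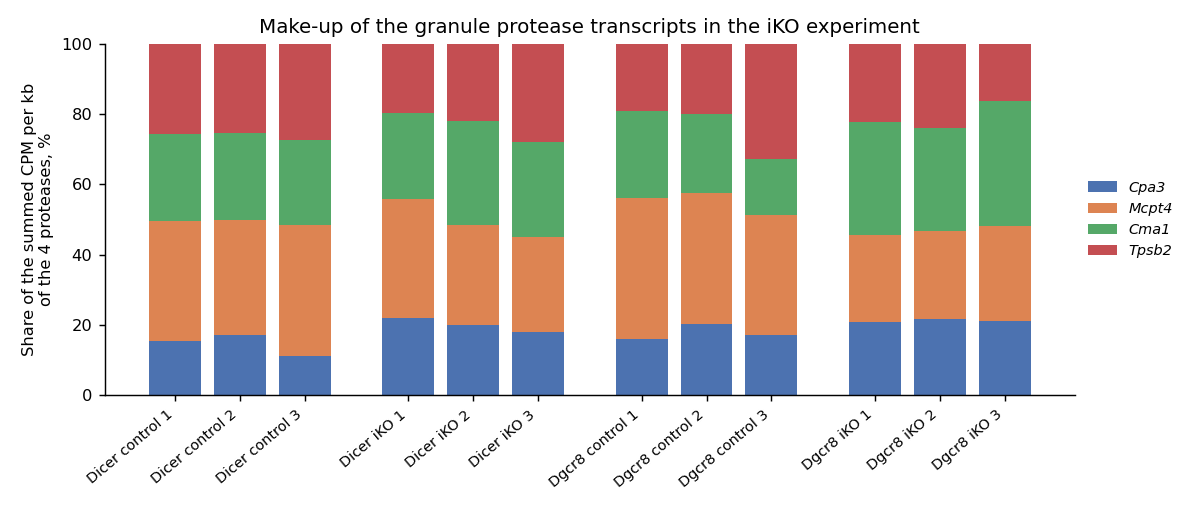
Share of each protease in the summed CPM per kilobase of Cpa3, Mcpt4, Cma1 and Tpsb2 (y axis, %, from 0 to 100) in each iKO library (x axis). The share of Cma1 is 29.5% to 35.6% in Dgcr8 iKO and 15.8% to 24.6% in Dgcr8 controls, and that of Mcpt4 is 24.8% to 27.1% and 34.3% to 40.3%.

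Within groups, the 4 proteases rose and fell together from library to library. After subtraction of each group mean, log2(CPM + 1) of the 6 pairs of proteases correlated across the 23 libraries with r = 0.914 to 0.982, highest for Cpa3 and Mcpt4. Ms4a2 correlated with the proteases at r = 0.554 to 0.588 and Kit with the proteases at r = 0.497 to 0.531. Kit and Ms4a2 correlated at r = 0.763. The points share library preparation and depth, counts in most crush libraries are low, and no test was made.

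**Figure D5:**
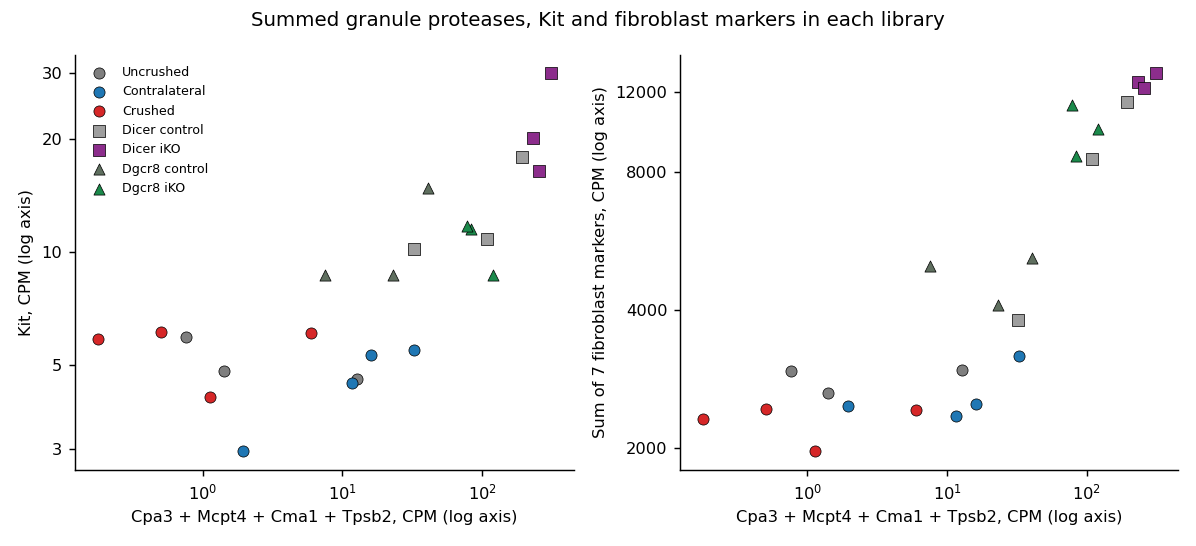
Summed CPM of Cpa3, Mcpt4, Cma1 and Tpsb2 (x axis, log) against Kit (left, y axis: CPM, log) and against the sum of 7 fibroblast markers (right, y axis: CPM, log) in all 23 libraries. The protease sum runs from 0.178 to 311 CPM while Kit runs from 2.96 to 29.97 CPM, and in the iKO libraries the fibroblast sum is 3811 to 13150 CPM.

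Fibroblast markers (Pdgfra, Dcn, Lum, Pi16, Dpp4, Col1a1 and Clec3b) were summed in the same libraries. The sum was 11370, 8536 and 3811 CPM in Dicer control 1 to 3, in the same order as the protease sum of 193, 109 and 32.3 CPM. In the other groups the order within the group differed from that of the proteases: Dgcr8 control 3 had the lowest proteases and 4994 CPM of fibroblast markers, against 4110 CPM in Dgcr8 control 1, and Dgcr8 iKO 3 had the lowest proteases of its group and the highest fibroblast sum. The sum was 12194 to 13150 CPM in Dicer iKO, 4110 to 5191 CPM in Dgcr8 controls and 8705 to 11233 CPM in Dgcr8 iKO, with 2 of 7 markers called higher in Dicer iKO and 3 of 7 in Dgcr8 iKO. Of all genes tested, 7.37% and 13.4% were called higher, respectively. Lum, a proteoglycan of the collagen matrix, rose by 1.34 (adjusted p = 0.0279) and 1.53 (adjusted p = 0.000172). Pdgfra, which marks nerve fibroblasts, did not pass (-0.38, adjusted p = 0.351, and -0.11, adjusted p = 0.587). The 5 endothelial markers, which stand for vessels, summed to 224 to 243 CPM in Dicer controls and 152 to 164 CPM in Dicer iKO, and to 233 to 268 CPM and 155 to 208 CPM in the Dgcr8 line. T cell markers (Cd3e, Cd3d, Cd4 and Cd8a) summed to 0.134 to 0.519 CPM in Dgcr8 controls and 15.4 to 23.6 CPM in Dgcr8 iKO, and to 0.267 to 1.87 CPM and 11.1 to 26.5 CPM in the Dicer line. The Schwann cell genes Prx (-1.08, SE 0.28) and S100b (-1.26, SE 0.24) were called lower in Dgcr8 iKO and had -0.89 and -0.68 in Dicer iKO, under the 2-fold threshold. The perineurial marker Itgb4 was called lower in Dicer iKO (-1.11, SE 0.16) and had -0.81 in Dgcr8 iKO. Perineurial genes went both ways in Dgcr8 iKO, where 1 of 4 tested was called higher and 0 lower (log2 scale, median of the 4: 0.58). In Dicer iKO 0 of 4 were called higher and 1 lower (median of the 4: -0.99). Perineurial sums were 552 to 878 CPM in Dgcr8 controls and 422 to 534 CPM in Dgcr8 iKO. The part of any of these in the rise of the proteases was not tested.

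The genes most like the members were searched among 12846 expressed genes, by correlation with the mean of the members after subtraction of group means (n = 23 libraries). The highest r values belonged to Fkbp1b (0.847), Mrgprb1 (0.841), Sobp (0.840), Echdc2 (0.814), Itpr2 (0.799), Mest (0.791), Amigo2 (0.789), Ldlrad4 (0.789), Serpinb1a (0.789) and Abi3bp (0.778). Mrgprb1 is a receptor of mast cells from the Mrgpr family. By the same measure, each protease correlated with the mean of the other members at 0.894 to 0.921, Ms4a2 at 0.666 and Kit at 0.619. The order of the other genes was not stable: only 3 of these 10 were among the first 10 of the crush libraries and 1 among those of the iKO libraries when group means were kept. Most fibroblast markers also varied with the members by this measure. Lum had r = 0.690 (rank 64 of 12846), Pdgfra 0.617, Col1a1 0.615, Dcn 0.590 and Dpp4 0.575. Clec3b had 0.413 and Pi16 -0.118. Such values were not particular to fibroblast markers. The receptor gene Il1rl1 had 0.768 (rank 13), and the macrophage markers had 0.582 (Csf1r), 0.523 (Adgre1), 0.392 (C1qa), 0.344 (Aif1) and 0.253 (Cd68). The reason was not tested.

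Other genes of mast cells were taken from lists of granule, mediator, receptor and transcription factor genes. Of the receptor genes, 2 of 4 were called higher in Dgcr8 iKO, where 13.4% of all genes were: Fcer1a, the alpha chain of FcεRI (2.21, SE 0.60, adjusted p = 0.0111), and Mrgprb1 (1.21, SE 0.40, adjusted p = 0.0298). Fcer1a had 1, 11 and 3 counts in Dgcr8 controls and 21, 28 and 29 in the mutants, through which it passed the filter. In Dicer iKO, where 7.37% of all genes were called higher, 1 of 4 was, Mrgprb2, the mast cell receptor for basic peptides (1.32, SE 0.32, adjusted p = 0.0267), which had 2.31 to 5.74 CPM in controls and 9.04 to 10.2 CPM in mutants. The median log2 fold change of the 4 receptor genes was 1.01 in Dgcr8 iKO and 1.31 in Dicer iKO. After crush 2 of 4 were tested, and Mrgprb1 was called lower than in contralateral nerves (-1.33, SE 0.47, adjusted p = 0.0227) and than in uncrushed nerves (-1.33, SE 0.47, adjusted p = 0.0259). Mrgprb1 had 2 to 13 counts in crushed, 12 to 32 in contralateral and 9 to 25 in uncrushed libraries. It passed the filter mainly through the groups in which it was high. Il1rl1, the receptor for IL-33, was not called in these comparisons.

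Most mediator genes were higher after crush. Of 8 listed, 6 were tested against contralateral nerves, where 14.6% of all genes were called higher. Called higher were 5 of them: Alox5ap (3.34, adjusted p = 5.75e-09), Ltc4s (2.82), Hpgds (1.997), Ptgs1 (1.93) and Alox5 (1.57). These encode enzymes and a partner protein of leukotriene and prostaglandin synthesis, and macrophages also express them. Ltc4s had 5 to 9 counts in contralateral and 45 to 66 in crushed libraries, through which it passed the filter. Hdc, the enzyme that makes histamine, had -0.47 (SE 0.35, adjusted p = 0.248) against contralateral and was called lower against uncrushed nerves (-1.18, SE 0.34, adjusted p = 0.00841). In Dgcr8 iKO 3 of 7 tested were called higher, namely Hpgds, the prostaglandin D synthase (3.25, SE 0.28), Ltc4s (1.62) and Alox5ap (1.59), and in Dicer iKO 2 of 8, Hpgds (2.62, SE 0.40) and Ltc4s (1.65). Of all genes tested, 13.4% were called higher in Dgcr8 iKO and 7.37% in Dicer iKO. Hdc did not pass in either mutant (0.20, adjusted p = 0.746, and 0.56, adjusted p = 0.418).

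Among the other granule genes, 2 of 9 passed the filter after crush, and Srgn, the granule proteoglycan that other blood cells also make, was called higher against contralateral nerves (1.31, SE 0.20). In the mutants 0 of 2 (Dgcr8 iKO) and 0 of 3 (Dicer iKO) were called by edgeR, and 0 and 1 had an unadjusted p under 0.05. Srgn had 0.27 (SE 0.12, adjusted p = 0.09997) in Dgcr8 iKO and Ndst2, which sulfates heparin, 0.36 (SE 0.13, adjusted p = 0.0953) in Dicer iKO. The second tryptase Tpsab1 reached 3.22 CPM on average in Dicer iKO and 1.45 CPM in its controls (1.17, SE 0.54, adjusted p = 0.162), well below Tpsb2. Of the transcription factors, Gata2 and Mitf were tested and edgeR called 0 of 2 in each of the crush and mutant comparisons, with an unadjusted p under 0.05 for 1, Mitf at 3 dpc against contralateral nerves (-0.33, SE 0.11, adjusted p = 0.0172). Gata1 stayed at or below 1.18 CPM in all libraries. In Dgcr8 iKO, Gata2 had -0.53 (SE 0.48, adjusted p = 0.395) and Mitf -0.04 (SE 0.12, adjusted p = 0.814).

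Genes acting downstream of FcεRI were mostly higher in the crushed nerves and in both mutants. Of 18 listed, 12 were called higher after crush against contralateral nerves, 12 in Dicer iKO and 12 in Dgcr8 iKO, against 14.6%, 7.37% and 13.4% of all genes tested. Against uncrushed nerves, where 15.3% of all genes were called higher and 21.1% lower, 12 were called higher and 2 lower, Unc13d (-1.11) and Rab27b (-1.25), which act in granule release. Fcer1g, the gamma chain shared with other Fc receptors, rose by 2.96, 2.51 and 2.95, respectively, on the log2 scale (adjusted p = 2.16e-08, 0.00381 and 0.000108). Most of these genes serve macrophages and other blood cells too, and all 5 macrophage markers were called higher in Dgcr8 iKO and 4 of 5 in Dicer iKO. Macrophage sums were 131 to 156 CPM in Dgcr8 controls, 605 to 1345 CPM in Dgcr8 iKO, 135 to 394 CPM in Dicer controls and 773 to 1331 CPM in Dicer iKO. Macrophage markers were thus called higher after crush, where the proteases were called lower, and in Dgcr8 iKO, where the proteases were called higher.

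Kitl, the ligand of KIT, was called higher in Dgcr8 iKO, with 33.8, 37.9 and 44.6 CPM in controls and 75.2, 80.7 and 82.1 CPM in mutants (1.03, SE 0.13, adjusted p = 0.000104). After crush it had 41.6 to 49.1 CPM, against 18.8 to 23.1 CPM in contralateral nerves (1.004, SE 0.09, adjusted p = 2.82e-07). It was not called in Dicer iKO (0.28, SE 0.23, adjusted p = 0.427), in which the controls had 43.6 to 86.0 CPM. Il33, the ligand of Il1rl1, was called higher at 3 dpc against contralateral nerves (1.21, SE 0.19), was under the 2-fold threshold against uncrushed nerves (0.96, SE 0.18, adjusted p = 0.000529), and was called in neither mutant.

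Markers of cells that share genes with mast cells were looked at last. The basophil protease Mcpt8 was at 0 in all 12 iKO libraries and in all crushed libraries. Summed basophil markers (Mcpt8, Prss34 and Cd200r3) were 0.416 to 1.21 CPM in Dgcr8 controls and 1.40 to 3.65 CPM in Dgcr8 iKO, where Cd200r3 was called higher (1.42, SE 0.52, adjusted p = 0.0459), with 3, 9 and 4 counts in controls and 15, 22 and 11 in mutants, so that it passed the filter through the mutants. The eosinophil genes Prg2 and Epx had at most 0.233 and 0.208 CPM in the iKO libraries, while Siglecf, which eosinophils and some macrophages express, was called higher in Dgcr8 iKO (3.28, SE 0.48, adjusted p = 0.000253). Siglecf had 2 to 3 counts in controls and 22 to 29 in mutants and also passed the filter through the mutants. Melanocytes also express Kit, and of their markers Mlana was at 0 in all iKO libraries while Pmel was called higher in Dgcr8 iKO (2.88, SE 0.35, adjusted p = 8.13e-05). The 5 melanocyte markers together had 19, 9 and 19 counts in Dgcr8 controls and 80, 80 and 130 in the mutants. Pmel thus also passed the filter through the mutants.

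Genes near the members were followed too. Of all genes tested, 14.6% were called higher and 13.6% lower after crush against contralateral nerves, 7.37% higher in Dicer iKO and 13.4% higher in Dgcr8 iKO. Within 250 kb of Ms4a2, 8 of 11 genes tested after crush, 5 of 7 in Dicer iKO and 8 of 9 in Dgcr8 iKO were called higher and 0 lower. Most belong to the same gene family, such as Ms4a6d and Ms4a4a, which macrophages express. On the log2 scale Ms4a6d had 4.08 after crush and 3.56 in Dgcr8 iKO, and Ms4a4a 3.68 and 3.03. Ms4a2 itself had 9 to 17 counts in Dgcr8 iKO. Around Mcpt4, 1 of 6 genes tested after crush was called higher, Gzmb (4.69), and 1 was called lower, Sdr39u1 (-1.26), and 0 of 4 were called in either mutant. Around Cma1, 4 of 11 genes tested after crush were called higher and 1 lower, Sdr39u1 again. In Dicer iKO 1 of 10 was called higher, Ripk3 (1.31), and in Dgcr8 iKO 2 of 10 were, Ripk3 (1.37) and Tgm1 (1.44). Around Cpa3 1 of 4 genes tested was called in Dicer iKO, Gyg (1.59), and 0 of 4 after crush and in Dgcr8 iKO. Around Kit no other gene within 250 kb passed the filter. Around Tpsb2, Cacna1h was called higher in Dgcr8 iKO (2.57, SE 0.25) and Dicer iKO (1.57, SE 0.38). After crush 2 of 10 genes tested there were called lower, 2810468N07Rik (-4.18) and Unkl (-1.01), and 0 higher.

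Cma1 shares 295 bases at 96.9% identity with Gm48934, and counts could be split between these. The closest matches of the other members were Tpsab1 for Tpsb2 (86.1% over 180 bases), Ms4a4b for Ms4a2 (79.5% over 1298 bases), Cpb1 for Cpa3 (76.4% over 110 bases) and Csf1r for Kit (75.6% over 250 bases). Mcpt4, Cma1 and Tpsb2 were listed with 1 transcript each. The coding transcripts of Kit held 47.1% and 43.6% of its counts in the crush libraries, and transcripts with retained introns held the rest. The iKO tables list only these coding transcripts of Kit.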

How the data were processed

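RNA of SNs was sequenced in 23 libraries, from 3 or 4 mice per group by the study's methods. By those methods the contralateral nerves were taken from mice with a crushed nerve, so these 2 groups share animals. Whether a crushed and a contralateral library with the same number came from the same mouse is not given in the sources used here. The main test treated the 2 groups as independent. Per the labels and methods, the authors trimmed reads with Trimmomatic, aligned them to GRCm38 with STAR and quantified transcripts with RSEM. The deposited values are expected counts and TPM per transcript. TPM were not used for levels, because a single short transcript took 61.4% to 71.8% of TPM in the crush libraries. Those of a gene's transcripts were added up and the sum was rounded. Genes passing filterByExpr (minimum count 10) were tested within each experiment with edgeR 4.0.16 in R 4.3.3, by the quasi-likelihood test with TMM scaling and Benjamini-Hochberg adjustment over all genes tested, and called at a fold of at least 2 and an adjusted p of at most 0.05. CPM used TMM scaling, and likeness used log2(CPM + 1). The scripts were tested on simulated data. Each comparison was fitted on its own groups, without replicate numbers. Alternatives were other scaling, filters, DESeq2 1.42.0, a replicate block, all groups in 1 fit and leaving out each library. Named genes were the 6 members in every comparison, called genes of the mast cell lists (or the lowest adjusted p), the first and most significant genes of other lists, the 10 genes of highest likeness and called genes within 250 kb. The members and gene lists were chosen with earlier results of these data known. Labels name different library kits for the experiments, and the methods name 1 kit for both.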

Additional observations from a re-analysis of the deposited data

Results flagged for a closer look

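A library lying far from the rest of its group was looked for in the 12 groups of 4 crush values (6 genes in crushed and contralateral nerves), where chance marks about 1 in 20, and 2 were found. Tpsb2 was at 0.699 CPM in Crushed 3 and at 0 in the other crushed libraries, so that its gap to the nearest library was the whole range of the group. Kit was at 4.11 CPM in Crushed 1, below the other crushed libraries by 0.876 of the range. Crushed 1 is the crushed library with adipocyte transcripts, whose part in the Kit value was not tested.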

How the results depend on the processing

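Members called were 3 lower (crushed against contralateral) and 4 higher (Dgcr8 iKO), and 0 in the other comparisons. With no count filter, 3 members were lower against uncrushed nerves and 1 in Dgcr8 against Dicer controls. With at least 10 counts in every library, 0 were lower against contralateral nerves, where the 3 genes were no longer tested. DESeq2 called 1 lower there and 1 between the controls. All groups in 1 fit called 1 member higher in Dicer iKO and 2 lower between the controls. Leaving out single libraries gave 0 to 1 members lower against uncrushed, 2 to 5 against contralateral, 0 to 5 higher in Dicer iKO, 3 to 4 in Dgcr8 iKO and 0 to 5 lower between the controls.

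Over all genes, crushed against uncrushed had 1747 higher with 10 counts in every library. Contralateral against uncrushed had 13 higher and 128 lower with no filter, 31 lower in DESeq2, 1 lower with all groups in 1 fit, and 0 to 95 lower leaving out single libraries. Dicer iKO had 961 higher and 214 lower, and 515 to 1093 and 57 to 375 leaving out single libraries. Between the controls, genes higher and lower were 19 and 211 with no filter, 21 and 271 in DESeq2 and 17 and 206 with all groups in 1 fit, 1 was lower with 10 counts in every library, and leaving out single libraries gave 0 to 101 and 1 to 680. For the interaction, 0 were lower with RLE scaling, 17 higher and 3 lower with no filter, 0 and 0 with 10 counts, 170 and 65 in DESeq2, and 0 to 320 and 0 to 81 leaving out single libraries. The cause of these changes was not tested.

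Signs turned only in values that were not called. Kit against uncrushed was -0.0038 with RLE scaling, -0.11 with 10 counts in every library, -0.0055 in DESeq2, -0.10 with all groups in 1 fit and -0.088 to 0.138 leaving out single libraries. Kit in Dgcr8 iKO was 0.016 with 10 counts in every library and -0.15 to 0.29 leaving out libraries. Leaving out libraries, Kit ranged from -0.0064 to 0.26 against contralateral and -0.58 to 0.028 between the controls, Ms4a2 from -0.72 to 0.30 (contralateral against uncrushed), and the interaction from -0.076 to 1.37 for Cpa3, -0.33 to 0.93 for Mcpt4 and -0.42 to 0.73 for Ms4a2.

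Whether replicate numbers pair the samples is not settled: the labels do not say so, and the mean correlation of deviations between same-numbered libraries was 0.0499 for crushed and contralateral nerves and -0.0777 to -0.00222 in the other pairs of groups. With the replicate block, 0, 3, 0, 0, 4, 0 and 0 members were called, as without it. The block gave 548 genes higher and 92 lower in Dicer iKO, 6 lower in contralateral against uncrushed nerves, 1 lower between the controls, and 0 higher and 0 lower for the interaction, and moved Kit to -0.094 against uncrushed and to 0.011 in Dgcr8 iKO.

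The detection limit of 0.234 to 0.536 CPM restricts what can be said of Tpsb2, Ms4a2, Mcpt4, Cma1 and Cpa3 in the crush libraries: Mcpt4, Cma1 and Cpa3 had 0 to 1 counts in some crushed or uncrushed libraries, so the size of their falls is uncertain.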
